A study of Mus musculus with 2 samples.

Results

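The genes described here encode the receptors of mouse cells for the constant (Fc) part of immunoglobulin G (IgG): the activating receptors Fcgr1, Fcgr3 and Fcgr4, their shared signaling chain Fcer1g, the inhibitory receptor Fcgr2b, and Fcgrt, the neonatal Fc receptor. They were taken by symbol, and all 6 were found among the 31053 genes of the files. Their transcripts were followed in single leukocytes from Braf V600E-driven melanomas made deficient for COX-1 and COX-2 (Ptgs-/- cells), the enzymes that start prostaglandin synthesis. Tumors were taken on day 4 from C57BL/6 hosts aged 8 weeks, 10 tumors of a group were pooled, live CD45+ cells (CD45 is a surface protein of leukocytes) were sorted, parental melanoma cells were added, and 16000 cells per group were loaded on a droplet chip for 3′ sequencing. The labels call the control hosts untreated. The study's methods also list control IgG among its injected antibodies, without saying whether these hosts were given any. The NK cell-depleted hosts were given 200 µg of anti-NK1.1 (clone PK136) and 30 µg of an antibody to asialo GM1 on day 0 and again on day 2, both of which remove natural killer (NK) cells. The absence of NK cells and the receipt of these depleting antibodies, potential ligands of the receptors, came together in 1 group and cannot be told apart. One label of both samples names wildtype tumor cells while the titles and design name the knockout, a conflict that touches both groups alike.

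As background, Fc receptors let a leukocyte sense antigen that antibody has coated. The activating receptors bind IgG outside the cell and pass the signal on through the Fcer1g chain to the kinase Syk, which in phagocytes leads to engulfment and in NK cells to killing of the coated cell. Fcgr2b carries an inhibitory motif of its own and recruits the phosphatase SHIP-1, so the balance of both kinds sets the threshold of a cell. Fcgrt works inside the cell, where it pairs with beta-2 microglobulin, returns IgG from endosomes to the surface and takes part in handling of immune complexes. Mouse NK cells are known to use Fcgr3, neutrophils Fcgr3 and Fcgr4, and monocytes and macrophages the whole set.

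With 1 library per group there was no test and no replicate check of any difference, and every interval given is a 95% interval for counting error only. After filtering, 5292 control cells (24810009 unique molecular identifiers, UMIs, that is, distinct transcript molecules) and 4506 cells of NK cell-depleted hosts (23245982 UMIs) were left. The median cell held 4170 and 4893 UMIs, and 5 cell barcodes occurred in both libraries. Cells were clustered without the genes described here and named from marker lists. Monocyte/macrophage-like cells numbered 3548 in the control library and 3204 in the NK cell-depleted library, neutrophil-like cells 431 and 499, and NK-like cells 553 and 11. The summed level of 9 neutrophil markers was 46209 and 48448 CPM (UMIs per 1000000 UMIs of the cells concerned) in neutrophil-like cells and 177 and 184 CPM in monocyte/macrophage-like cells. NK-like cells of the control library held all 11 NK markers, at a summed 12393 CPM. The 11 NK-like cells of the NK cell-depleted library held 4 of these 11 markers at 204 CPM, with Ncr1, Gzma, Prf1 and Eomes at 0 UMIs, and T cell markers at 3635 CPM. They therefore went against their name, and no NK-like value of that library is read as a level of NK cells below.

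Nearly all transcripts of the 3 activating receptors and of Fcgr2b lay in monocyte/macrophage-like cells. These cells held 98.5% (98.1 to 98.8) of the Fcgr1 UMIs of the control library, 95.8% of those of Fcgr3, 95.8% of those of Fcgr4 and 96.5% of those of Fcgr2b, against 80.7% of all UMIs. For Fcer1g and Fcgrt the shares were 88.6% and 88.9%. In the NK cell-depleted library the shares of Fcgr1 and Fcgr3 were 98.4% and 94.99%, close to those of the control library. The plot of levels by cell class shows that each gene had its own reach beyond these cells.

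**Figure D1:**
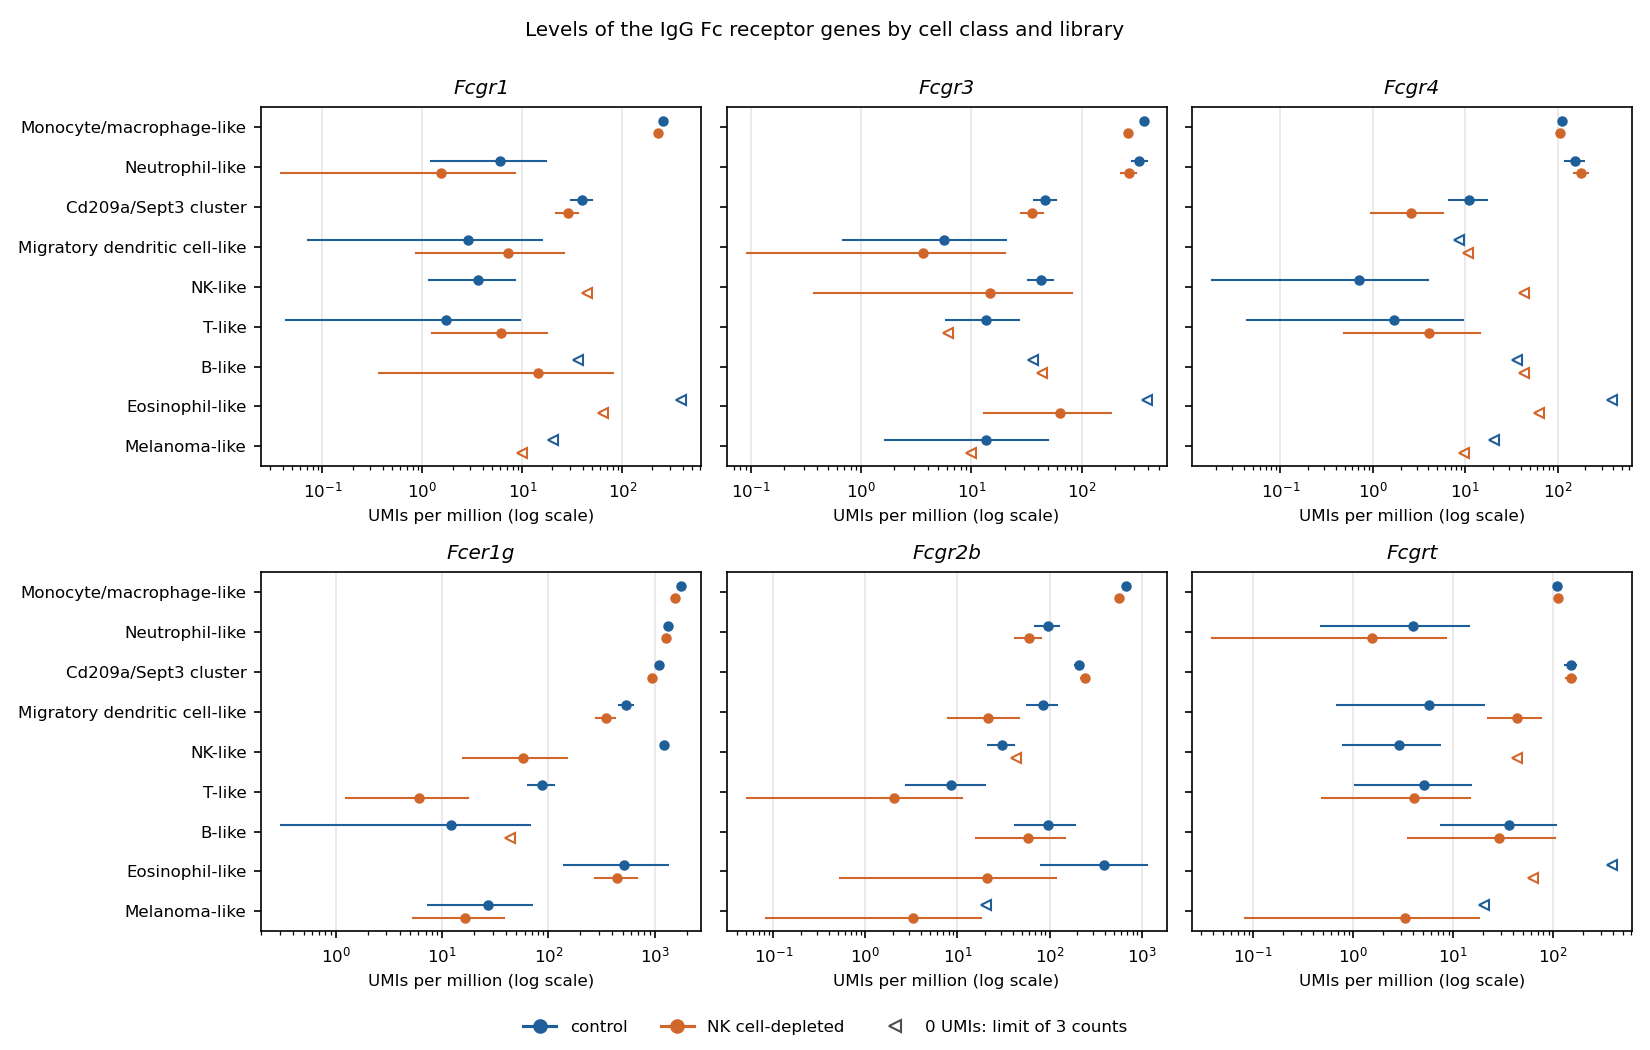
Level of each gene (CPM, log scale) in each cell class of the control library (blue) and the NK cell-depleted library (orange). Points are sums over cells, lines are 95% counting intervals, and open triangles mark 0 UMIs at the limit of 3 counts. Fcer1g stood at 1761 CPM in control monocyte/macrophage-like cells, 1339 CPM in neutrophil-like cells and 1219 CPM in NK-like cells, while Fcgr1 was at 254 CPM in the first and at most 39.4 CPM in the other classes of that library.

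In control NK-like cells the signaling chain was abundant and the receptors were sparse. Fcer1g stood at 1219 CPM (1162 to 1279), with 1698 UMIs in 553 cells, and 90.1% of the cells held at least 1 of its UMIs. Fcgr3, the receptor known from mouse NK cells, stood at 42.4 CPM (32.3 to 54.7) from 59 UMIs, below the 366 CPM (357 to 374) of monocyte/macrophage-like cells in the same library. Fcgr2b stood at 30.2 CPM (21.7 to 40.8) from 42 UMIs. The other 3 genes were close to nothing, with 5 UMIs of Fcgr1, 4 of Fcgrt and 1 of Fcgr4. Monocyte/macrophage markers were present in these NK-like cells too, at a summed 1912 CPM (39 of 44 with UMIs). In control monocyte/macrophage-like cells they were at 27486 CPM. The part of RNA from such cells in the Fcgr3 and Fcgr2b levels of NK-like cells was not tested.

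Free RNA in the droplets sets a floor under such sparse values. Melanoma-like cells, which should lack these genes, held 2 UMIs of Fcgr3 (13.6 CPM, 1.65 to 49.1) and 4 of Fcer1g (27.2 CPM, 7.41 to 69.6) in the control library, and 0 of Fcgr1, Fcgr4, Fcgr2b and Fcgrt. The Fcgr3 interval of melanoma-like cells reached into that of NK-like cells. With every cell thinned to 2000 UMIs, Fcgr3 was seen in 6.41% (3.96 to 9.73) of 312 NK-like cells and in 0 of 21 melanoma-like cells (0 to 16.1). Control T-like cells, larger in number, held 8 UMIs of Fcgr3 in 280 cells (13.6 CPM, 5.88 to 26.8), an interval below that of NK-like cells. The thinned share of 1.33% (0.162 to 4.73) of 150 T-like cells overlapped, however. T-like cells are not a clean floor. Those of the NK cell-depleted library held 0 UMIs of Fcgr3, a difference beyond counting error, and control T-like cells also held NK markers, as given below. Fcgr1 and Fcgr3 had 5 and 59 UMIs in NK-like cells, against 5075 and 7319 in the monocyte/macrophage-like cells of the library. Fcer1g was seen in 87.2% (83.0 to 90.7) of the same NK-like cells and 4.76% (0.120 to 23.8) of the melanoma-like cells. Median depths before thinning were 2162 UMIs in NK-like, 1678.5 in melanoma-like and 2067.5 in T-like cells.

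The chain was present in every control NK-like cluster. Fcer1g reached 1477 CPM in the cluster led by Gzma, Prf1 and Klre1, 1166 CPM in that led by Xcl1, Klra8 and Il2rb, 1485 CPM in that led by Cma1, Gzma and Prf1, and 704 CPM in the small cluster led by Gzmc, Ikzf2 and Thy1. Fcgr3 lay between 31.8 and 54.4 CPM in all 4. The 33 control cells of the Gzmc cluster held T cell markers at 1272 CPM, against 499 to 631 CPM in the other NK-like clusters. Their NK markers were at 6653 CPM, against 10231 to 17857 CPM, so the name of this cluster is less sure in the control library too. In the NK cell-depleted library the cluster led by Gzmc held 10 cells, with 2 UMIs of Fcer1g (31.05 CPM) and 1 of Fcgr3.

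T-like cells differed in the same chain. Their Fcer1g level was 86.8 CPM (64.6 to 114) in 280 control cells and 6.07 CPM (1.252 to 17.7) in 212 NK cell-depleted cells, from 51 and 3 UMIs. The ratio was 14.3 (4.62 to 71.6). The level was higher in the control library in all 4 T-like clusters, but beyond counting error in 1, where 18 of the 51 UMIs lay. This cluster, led by Csf2, Gata3 and Lif, had 38 control cells and 39 NK cell-depleted cells, and the latter held 0 UMIs. NK markers moved with this difference: 10 of the 11 had UMIs in control T-like cells and 5 of 11 in those of the NK cell-depleted library, at summed levels of 296 and 111 CPM, and the part of these markers in the Fcer1g difference was not tested. In the Csf2/Gata3 cluster itself NK markers were at 3 and 1 UMIs. T cell markers of all T-like cells were at 4137 and 4035 CPM. In the Csf2/Gata3 cluster they were at 2178 and 1964 CPM, the lowest of the 4 T-like clusters in each library. Its first 50 genes held 2 T cell markers, against 8 or 9 in the others, so its name is less sure. The Fcer1g difference in this cluster is therefore not read as one of T cells.

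Neutrophil-like cells carried a narrow set: Fcgr3, Fcgr4 and Fcer1g, with little Fcgr2b and next to no Fcgr1 or Fcgrt. Fcgr4, which binds IgG subclasses and IgE in the mouse, stood at 153 CPM (121 to 191) in the control library and 180 CPM (149 to 215) in the NK cell-depleted library. Fcgr3 stood at 334 CPM (285 to 388) and 267 CPM (229 to 309), and Fcer1g at 1339 CPM (1240 to 1444) and 1280 CPM (1195 to 1370). These levels rested on 77 to 840 UMIs per gene and library. Fcgr1, the high-affinity receptor, was limited to 3 and 1 UMIs, and Fcgrt to 2 and 1.

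Between the libraries, Fcgr3 was higher in control neutrophil-like cells by a ratio of 1.251 (1.01 to 1.56), and Fcgr2b by 1.60 (1.03 to 2.51) from 48 and 39 UMIs. Neither was beyond counting error within a neutrophil-like cluster: in the one led by S100a8 the ratios were 1.20 (0.945 to 1.51) and 1.55 (0.973 to 2.46), and in the one led by Gm5483, with 59 and 35 cells, 1.27 (0.675 to 2.47) and 3.80 (0.461 to 175). The intervals of Fcgr4 (0.851, 0.630 to 1.14) and Fcer1g (1.05, 0.944 to 1.16) took in no difference. Of the 4 genes with at least 20 UMIs, 1 (Fcgr2b) lay past 1.5-fold, and 22.6% of the 4950 genes tested in neutrophil-like cells did so in either direction. NK markers were also higher in control neutrophil-like cells, at a summed 165 CPM (10 of 11 with UMIs) against 1.52 CPM (1 of 11). Control NK-like cells held less Fcgr3 and less Fcgr2b than control neutrophil-like cells. The part of NK cell RNA in these ratios was not tested. Fcgr4 was unequal between the 2 neutrophil-like clusters. It stood at 170 and 190 CPM in the one led by S100a8, S100a9 and G0s2, and at 31.7 and 25.0 CPM, from 2 and 1 UMIs, in the one led by Gm5483, Hcar2 and Cxcl3, where Fcgr3 was 508 and 400 CPM.

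In dendritic cells Fcgr2b outnumbered the activating receptors, and Fcgrt was high in 1 cluster. The cluster led by Cd209a, Sept3 and Flt3 matched the list of type 2 conventional dendritic cells but also had Xcr1, known from the type 1 subset, among its first 10 genes, so it is called here by its genes. Fcgrt stood there at 150 CPM (132 to 169) and 151 CPM (136 to 168), above the 109 CPM (104 to 114) and 112 CPM (107 to 116) of monocyte/macrophage-like cells. Fcgr2b stood at 209 CPM (188 to 231) in the control library and 240 CPM (221 to 261) in the NK cell-depleted library, a ratio of 0.868 (0.758 to 0.993). Fcgr4 was rare, with 19 and 6 UMIs and a ratio of 4.21 (1.62 to 12.9), and Fcgr1 (39.4 and 28.3 CPM) and Fcgr3 (46.9 and 35.7 CPM) differed within counting error.

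Migratory dendritic cell-like cells held Fcer1g at 540 and 346 CPM and Fcgr2b from 30 and 6 UMIs, at 85.3 CPM (57.5 to 122) and 21.6 CPM (7.93 to 47.0). The 30 control UMIs of Fcgr2b lay in 12 of 60 cells, and a few of these cells held 76.7% of them. Counting intervals do not cover such a spread between cells. Fcgrt was rare in the control library, with 2 and 12 UMIs (0.132, 0.014 to 0.591). The Fcgr4 count was 0 in both libraries, which allows up to 8.53 and 10.8 CPM. B-like cells, in which Fcgr2b is known as the main Fc receptor for IgG, held 8 and 4 UMIs of Fcgr2b and at most 1 UMI of Fcgr1, Fcgr3, Fcgr4 or Fcer1g in a library. Eosinophil-like cells, 11 and 71 in number, held 4 and 21 UMIs of Fcer1g.

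Within monocyte/macrophage-like cells the 6 genes followed different clusters. Of the clusters, 10 carried that name, and 9 of them held at least 100 cells in both libraries; the other, led by Retnla, Lyz1 and Aldh1a2, held 106 and 74 cells and is left out of counts over clusters. Clusters are called by their leading genes. The plot of levels by cluster gives all values.

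**Figure D2:**
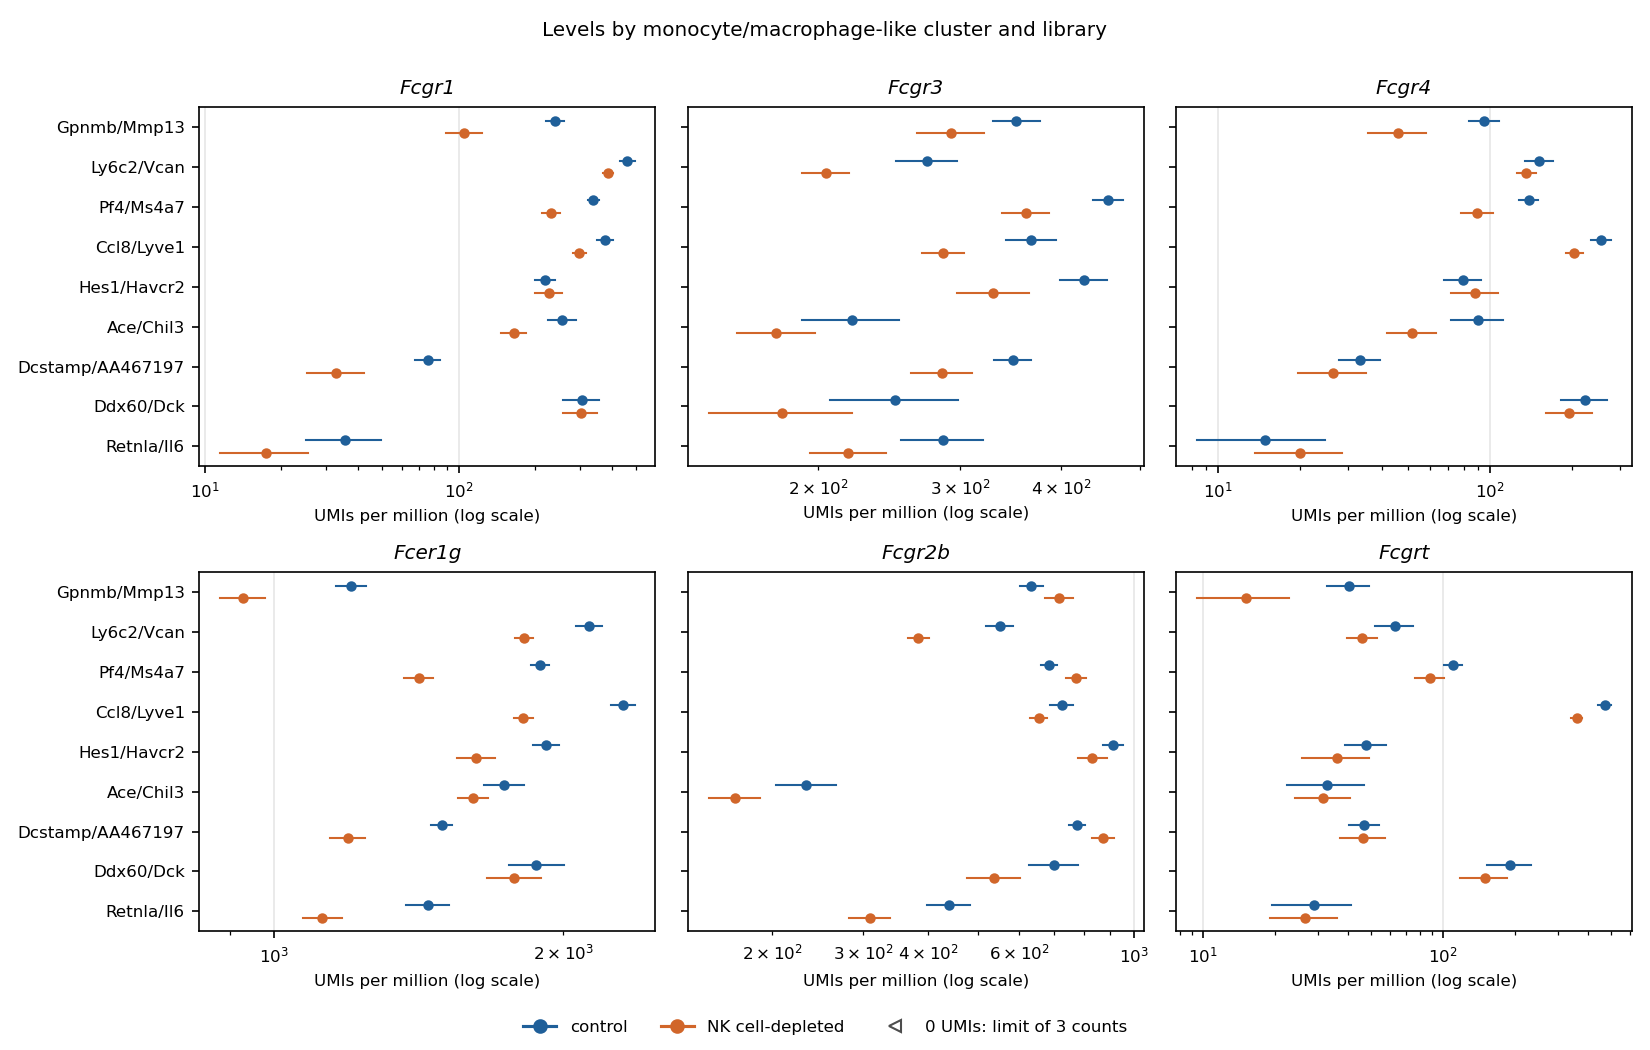
Level of each gene (CPM, log scale) in 9 monocyte/macrophage-like clusters that held 100 cells or more in each library, for the control library (blue) and the NK cell-depleted library (orange), with 95% counting intervals. Fcgr1 and Fcgr4 spanned a wider range between clusters than Fcgr3 or Fcer1g, and Fcgrt stood highest in the Ccl8/Lyve1 cluster.

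Fcgr1, the receptor with the highest affinity for IgG and a classical marker of macrophages and of monocytes under interferon, was highest in the cluster led by Ly6c2, Vcan and Ms4a4c, genes of inflammatory monocytes. It stood there at 461 CPM (control) and 386 CPM (NK cell-depleted), the order kept below. The clusters led by Ccl8 and Lyve1 (377 and 298 CPM) and by Pf4 and Ms4a7 (339 and 231 CPM) followed in the control library. The cluster led by Ddx60, Dck and Ifi213, interferon-inducible genes among them, held 305 and 302 CPM, which put it level with the Ccl8/Lyve1 cluster and above the Pf4/Ms4a7 cluster in the NK cell-depleted library, and its counting interval overlapped that of the Pf4/Ms4a7 cluster in the control library. The low end was formed by the cluster led by Dcstamp (75.5 and 33.0 CPM), a fusion protein of multinucleate macrophages, and that led by Retnla and Il6 (35.8 and 17.5 CPM).

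The 300 bases around the start of Fcgr1 are shown because they hold a match to the gamma-activated site (GAS, letters TTCNNNGAA), a sequence known from genes induced by interferon-gamma. The sequence is from RefSeq (GRCm38.p6, chr3:96293920-96294219, minus strand, printed 5′ to 3′), from 250 bases before to 50 bases after the start, with the match in capitals, 109 bases before the start.
Fcgr1: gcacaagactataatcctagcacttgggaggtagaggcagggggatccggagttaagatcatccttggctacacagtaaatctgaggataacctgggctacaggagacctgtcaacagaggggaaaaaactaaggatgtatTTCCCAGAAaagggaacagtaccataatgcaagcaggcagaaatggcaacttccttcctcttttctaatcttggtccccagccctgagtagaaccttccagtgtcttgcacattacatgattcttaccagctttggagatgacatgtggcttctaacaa
Such a match occurs in 8.30% of 32851 promoter windows of this length searched on both strands. It is a description of letters, not of a bound site.

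Fcgr4, an activating receptor of macrophages and neutrophils, was highest in the Ccl8/Lyve1 cluster (256 and 204 CPM) and in the Ddx60/Dck cluster (222 and 195 CPM), whose counting intervals overlapped. The Ly6c2/Vcan cluster held 151 and 136 CPM. The Dcstamp cluster (33.1 and 26.5 CPM) and the Retnla/Il6 cluster (14.9 and 20.05 CPM, from 15 and 31 UMIs) were lowest. Its window (chr1:171018676-171018975, plus strand, same build) is shown because it held a match to the interferon-stimulated response element (ISRE, searched as GAAA and GAAA with any 2 bases between), 73 bases before the start, and one to the PU.1 motif of myeloid cells (GAGGAAGT, here on the opposite strand), 24 bases before the start. Both are in capitals.
Fcgr4: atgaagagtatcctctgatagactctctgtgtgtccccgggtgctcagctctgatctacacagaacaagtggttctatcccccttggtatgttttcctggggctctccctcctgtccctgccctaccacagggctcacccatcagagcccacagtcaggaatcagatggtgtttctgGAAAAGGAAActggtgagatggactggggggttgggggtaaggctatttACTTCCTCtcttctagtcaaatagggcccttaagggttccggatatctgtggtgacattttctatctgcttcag
The ISRE letters occur in 3.44% and the PU.1 letters in 3.20% of the same windows, and no motif searched overlapped another in these windows. None of the 3 motifs was in the windows of Fcgr3, Fcer1g, Fcgr2b or Fcgrt.

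Fcgr3, the low-affinity activating receptor, varied least among the ligand-binding receptors. Its level in the control library ran from 220 CPM in the cluster led by Ace and Chil3, genes of circulating monocytes, to 457 CPM in the Pf4/Ms4a7 cluster, with the Hes1/Havcr2 cluster at 426 CPM. In the NK cell-depleted library the Ace/Chil3 cluster (178 CPM) was also lowest and the Pf4/Ms4a7 cluster (361 CPM) highest. Fcer1g, the chain that carries the activating signal, ran from 1202 CPM in the cluster led by Gpnmb and Mmp13 to 2306 CPM in the Ccl8/Lyve1 cluster of the control library, and from 927 to 1819 CPM in the NK cell-depleted library, where the Ly6c2/Vcan and Ccl8/Lyve1 clusters (1817 CPM) were level.

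Fcgr2b, the inhibitory receptor, ran from 233 and 169 CPM in the Ace/Chil3 cluster to 911 CPM (control) in the Hes1/Havcr2 cluster and 874 CPM (NK cell-depleted) in the Dcstamp cluster. The Retnla/Il6 cluster (439 and 308 CPM) and the Ly6c2/Vcan cluster (551 and 383 CPM) were next to lowest, and the other 6 lay between 634 and 911 CPM in the control library. Fcgrt, which salvages IgG, was concentrated in the Ccl8/Lyve1 cluster, whose leading genes are those of tissue-resident macrophages. It stood there at 472 and 361 CPM, followed by the Ddx60/Dck cluster (190 and 149 CPM) and the Pf4/Ms4a7 cluster (110 and 88.0 CPM). The other 6 clusters lay between 28.8 and 62.9 CPM (control) or between 15.02 and 46.5 CPM (NK cell-depleted).

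The comparison of the libraries asked whether these receptors differed in the myeloid cells when NK cells had been removed. Over all monocyte/macrophage-like cells the differences were modest. Fcgr3 was higher in the control library by a ratio of 1.40 (1.35 to 1.45), from 366 and 261 CPM. Fcgr2b followed at 1.20 (1.17 to 1.23), Fcer1g at 1.14 (1.12 to 1.16) and Fcgr1 at 1.11 (1.07 to 1.16), all higher in the control library. Fcgr4 (1.04, 0.9802 to 1.11) and Fcgrt (0.977, 0.920 to 1.04) differed within counting error. Of the 6 genes, 0 lay past 1.5-fold, against 12.4% of the 11897 genes with at least 20 UMIs. Their median log2 ratio was 0.17, and that of all genes −0.01.

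These sums mix clusters whose shares differed between the libraries. The Ly6c2/Vcan cluster made up 8.96% of monocyte/macrophage-like cells in the control library and 22.1% in the NK cell-depleted library, the Ccl8/Lyve1 cluster 8.26% and 14.6%, the Gpnmb/Mmp13 cluster 19.5% and 11.9%, and the Pf4/Ms4a7 cluster 18.4% and 9.18%. For equal weights the CPM values of the 9 clusters were averaged in each library before the ratio was taken, so clusters with high levels count more. This log2 ratio was larger than in the sums for Fcgr1 (0.39), Fcer1g (0.27), Fcgr4 and Fcgrt, and smaller for Fcgr3 (0.35) and Fcgr2b. Within clusters, Fcgr3 was higher in 9 of 9, each beyond counting error, with log2 ratios between 0.27 and 0.46. Fcer1g was higher in 9 of 9, of which 8 beyond counting error (0.08 to 0.42), and Fcgrt in 9 of 9, of which 4 (0.01 to 1.40). Among the 5731 genes with at least 20 UMIs in each of these clusters, 6.68% were higher in the control library in all 9 clusters and 507 genes were lower in all 9. A cluster can itself mix cell states, and ratios within clusters were not repeated at a finer clustering (resolution 2). There a cluster led by Vcan, Chil3 and Hp held 119 and 427 cells, and one led by Ly6c2, Ifit2 and Ifit3 held 189 and 202.

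**Figure D3:**
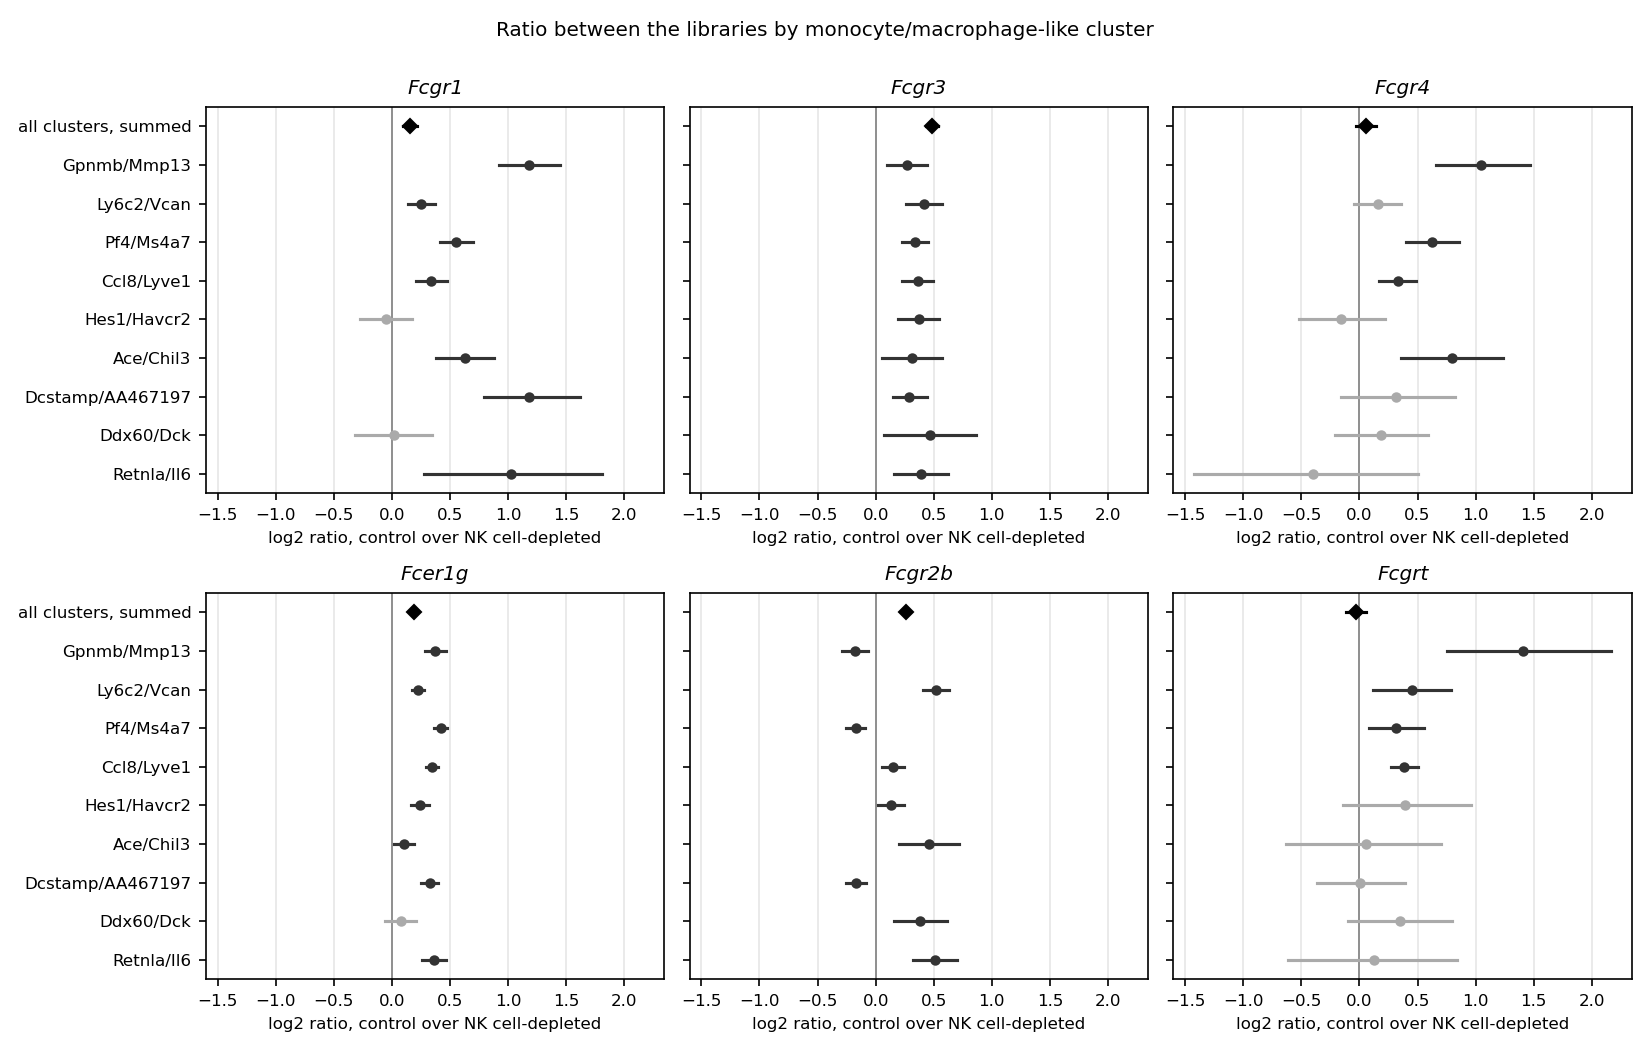
Log2 ratio (control over NK cell-depleted) of each gene, summed over all monocyte/macrophage-like cells (diamond) and in each of the 9 clusters (circles), with 95% counting intervals. Dark circles lie beyond counting error and gray ones within it. Fcgr3 was to the right of 0 in all 9 clusters, and Fcgr2b was to the left in 3 of them.

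Fcgr1 was higher in the control library in 8 of 9 clusters, of which 7 beyond counting error. Its largest ratios were in the clusters where it was lowest or intermediate. In the Gpnmb/Mmp13 cluster it stood at 239 and 105 CPM, a log2 ratio of 1.18 (0.93 to 1.45), and in the Dcstamp cluster at 75.5 and 33.0 CPM, also 1.18 (0.79 to 1.62). In the Ly6c2/Vcan cluster, the one with the highest level, the log2 ratio was 0.26 (0.14 to 0.37). The Hes1/Havcr2 and Ddx60/Dck clusters showed no difference beyond counting error, at −0.05 (−0.27 to 0.18) and 0.02 (−0.32 to 0.35).

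Fcgr4 was higher in 7 of 9 clusters, of which 4 beyond counting error. The Gpnmb/Mmp13 cluster showed the largest value, at 94.96 and 45.8 CPM and a log2 ratio of 1.05 (0.66 to 1.47), followed by the Ace/Chil3 cluster at 0.80 (0.36 to 1.24). Fcgrt had its largest log2 ratio in the same Gpnmb/Mmp13 cluster, at 1.40 (0.75 to 2.17), from 101 and 22 UMIs. In the Ccl8/Lyve1 cluster, where it was most abundant, Fcgrt differed by 0.39 (0.27 to 0.51). With equal weights for the 9 clusters the log2 ratio of Fcgrt was 0.37 and that of Fcgr4 0.33, while the sums gave −0.03 and 0.06.

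Among these 9 clusters, Fcgr2b was the one gene of the set that went both ways beyond counting error. It was higher in the control library in 6 clusters, most in the Ly6c2/Vcan cluster with 551 and 383 CPM (log2 ratio 0.52, 0.41 to 0.63) and the Retnla/Il6 cluster with 439 and 308 CPM (0.51, 0.32 to 0.70). It was lower in 3 clusters: Gpnmb/Mmp13 with 634 and 717 CPM (−0.18, −0.29 to −0.06), Pf4/Ms4a7 with 686 and 773 CPM (−0.17, −0.26 to −0.09) and Dcstamp with 777 and 874 CPM (−0.17, −0.26 to −0.08). With clusters at the same weight its log2 ratio was 0.11, while the sums gave 0.26.

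NK markers were higher in control monocyte/macrophage-like cells too, at a summed 65.5 CPM (11 of 11 with UMIs) against 4.78 CPM (4 of 11). Control NK-like cells held less of all 6 genes than monocyte/macrophage-like cells of that library, and the part of NK cell RNA in the ratios was not tested. Without possible doublets the log2 ratio of Fcgr3 was 0.49, as in all cells. T cell markers were at 15.8 and 9.46 CPM and B cell markers at 20.4 and 16.2 CPM.

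The activating receptors against Fcgr2b gave a second view of the same UMIs. Counts of 3′ ends do not scale with transcript length, but capture may differ between genes, so the ratio of the summed UMIs of Fcgr1, Fcgr3 and Fcgr4 to those of Fcgr2b is compared between cells and not read as a balance of proteins. It was 1.08 (1.06 to 1.11) in control and 1.05 (1.03 to 1.08) in NK cell-depleted monocyte/macrophage-like cells. Neutrophil-like cells stood far above at 5.17 (3.78 to 7.19) and 7.54 (5.39 to 10.8), and the Cd209a/Sept3 cluster below at 0.467 (0.386 to 0.562) and 0.277 (0.230 to 0.332).

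**Figure D4:**
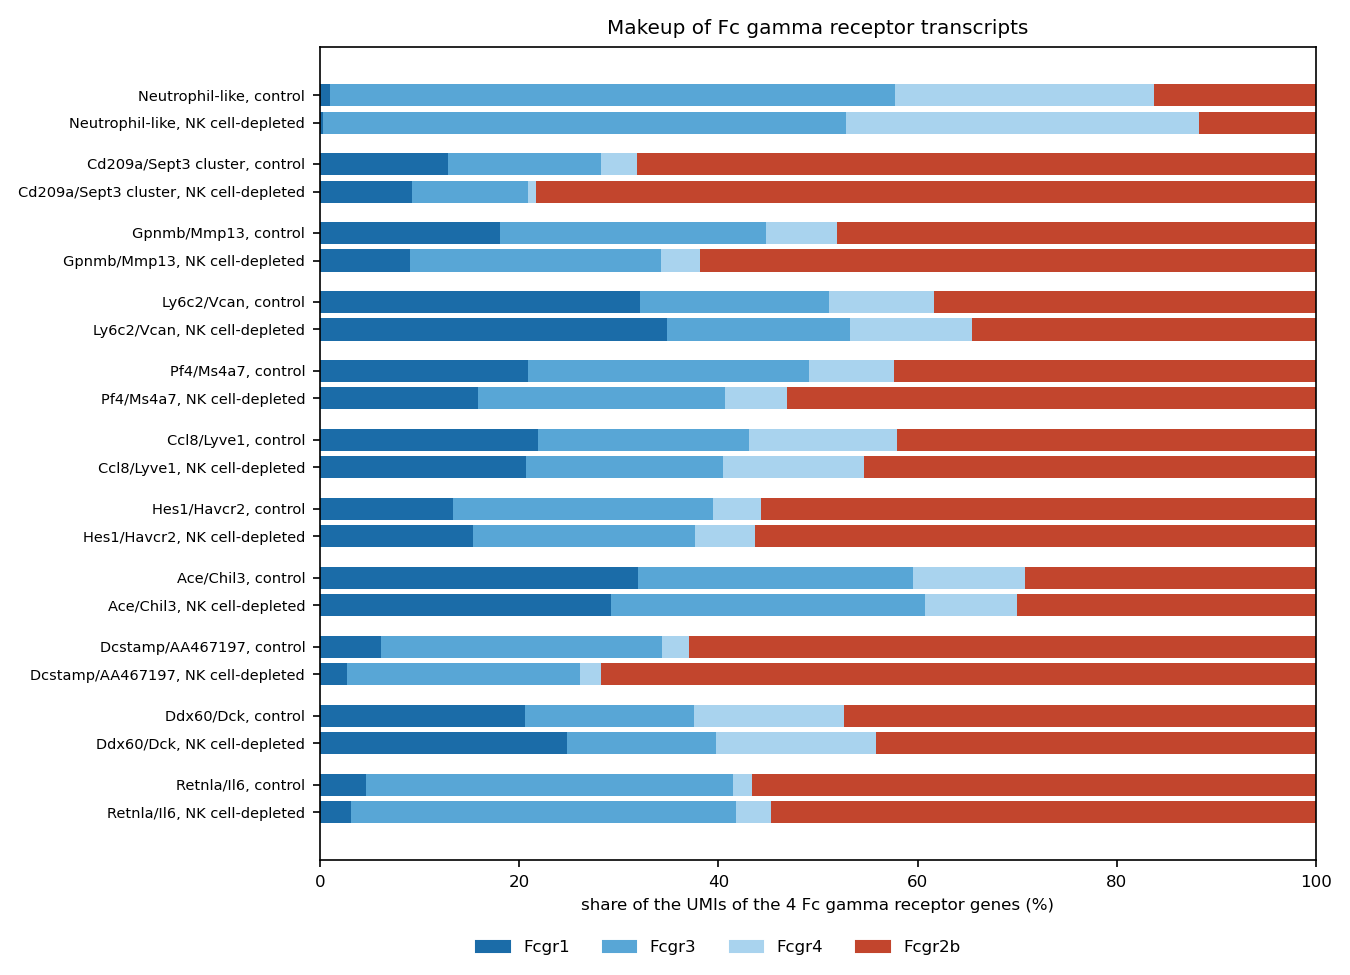
Share of the UMIs of Fcgr1, Fcgr3, Fcgr4 (blues) and Fcgr2b (red) in neutrophil-like cells, the Cd209a/Sept3 cluster and 9 monocyte/macrophage-like clusters of each library. Fcgr2b took 16.2% and 11.7% of these UMIs among neutrophil-like cells, but 63.0% and 71.7% for the Dcstamp cluster.

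Among monocyte/macrophage-like clusters the Ace/Chil3 cluster had the most activating transcripts per inhibitory one, at 2.43 (2.07 to 2.85) and 2.33 (2.03 to 2.67), and the Dcstamp cluster the fewest, at 0.588 (0.555 to 0.623) and 0.394 (0.359 to 0.432). Clusters differed between the libraries in both directions. In the Gpnmb/Mmp13 cluster the ratio was 1.08 (1.01 to 1.16) in the control library and 0.618 (0.560 to 0.682) in the NK cell-depleted library, and in the Pf4/Ms4a7 cluster 1.36 (1.30 to 1.43) and 0.882 (0.824 to 0.944). In the Ly6c2/Vcan cluster it was lower in the control library, at 1.61 (1.49 to 1.74) against 1.89 (1.78 to 2.01). With clusters at the same weight the ratio was 1.13 in the control library and 0.944 in the NK cell-depleted library.

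Detection per cell was compared with every cell thinned to 2000 UMIs, which left out 317 control and 242 NK cell-depleted monocyte/macrophage-like cells. Fcgr2b was then seen in 64.7% (63.1 to 66.4) of 3231 control cells and 56.1% (54.3 to 57.9) of 2962 NK cell-depleted cells, against 81.8% and 77.8% before thinning, when median depths were 5130 and 5492 UMIs. Fcgr3 was seen in 47.8% (46.1 to 49.5) and 37.4% (35.6 to 39.1), against 73.1% and 66.2%. Fcgr1 was seen in 36.0% and 32.3%, Fcgr4 in 18.0% and 16.8%, Fcgrt in 14.9% and 13.0%, and Fcer1g in 92.9% and 91.4%.

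Receptors of both kinds were often found in the same cell. Fcgr2b, Fcgr3 and Fcgr1 were each seen in a larger share of control cells. The share with both kinds under independent detection was not computed, so no link is read from it. At 2000 UMIs, 47.0% (45.2 to 48.7) of control cells held at least 1 activating receptor UMI and 1 Fcgr2b UMI, against 37.5% (35.8 to 39.3) of NK cell-depleted cells. Cells with neither made up 11.2% (10.1 to 12.3) and 19.3% (17.9 to 20.7). Shares with activating receptors alone (24.1% and 24.6%) and with Fcgr2b alone (17.8% and 18.6%) had overlapping intervals. Over all clusters pooled, Fcgr4 was seen in 23.9% of the 1162 control cells with Fcgr1 and in 14.6% of the 2069 without it. In the NK cell-depleted library these shares were 24.7% and 13.0%. Both genes were lowest in the Dcstamp and Retnla/Il6 clusters, and detection together within a cluster was not computed. For Fcgr3 and Fcgr1 no such link was seen in the control library, where Fcgr3 was in 48.4% of cells with Fcgr1 and 47.5% of those without. The NK cell-depleted library gave 39.6% and 36.3%.

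Genes that act with the receptors were taken as lists. Of 12 other Fc receptors 5 had at least 20 UMIs in monocyte/macrophage-like cells, with a median log2 ratio of 0.17. Fcrl1 was past 1.5-fold lower in the control library, with 40 and 96 UMIs and a ratio of 0.396 (0.267 to 0.579). Fcrla was past it on the higher side, with 24 and 13 UMIs, but within counting error at 1.76 (0.859 to 3.75). Fcrls, a scavenger-like receptor of macrophages, stood at 166 and 147 CPM, and Trim21, the cytosolic receptor for IgG, at 13.2 CPM in both libraries.

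Of 14 genes listed as partners of Fcer1g or Fcgrt 12 were measured, with a median log2 ratio of −0.30. Past 1.5-fold, 4 of them were higher in the control library and 2 lower, against 12.4% of all genes tested in either direction. Not every listed gene, such as Pirb (−0.31), is an established partner, so the median describes the list as drawn up. Of the 4 higher, Klrb1c, Ncr1 and Cd247 are genes of NK cells, and NK markers were higher in these control cells too (65.5 and 4.78 CPM), a part that was not tested. The C-type lectin receptors Clec4d and Clec4e, which signal through Fcer1g, went in opposite directions: Clec4d stood at 175 and 107 CPM (ratio 1.64, 1.55 to 1.73) and Clec4e at 148 and 297 CPM (0.498, 0.476 to 0.520). Klrb1c, which encodes NK1.1, the target of the antibody, and Ncr1, both NK receptors, had 74 and 11 and 23 and 0 UMIs. The ratio of Klrb1c was 6.40 (3.38 to 13.4). Cd247, with 20 and 11 UMIs, and Lilra5, with 21 and 32 UMIs, were past the fold but within counting error. B2m, the light chain of Fcgrt, was lower in the control library at 2928 and 3714 CPM (0.788, 0.780 to 0.797).

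Signaling genes were read against the same 12.4%. Of 20 genes of activating signaling 1 was past 1.5-fold, Src, at 4.45 and 2.68 CPM (1.66, 1.16 to 2.39), and the median log2 ratio was −0.21. Syk, the kinase recruited by Fcer1g, stood at 183 and 215 CPM (0.852, 0.814 to 0.891), and Lyn, Prkcd and Grb2 had ratios of 0.839, 0.895 and 0.863. Of 10 genes of inhibitory signaling 0 were past the fold, with a median of −0.17. Inpp5d, which encodes SHIP-1, the phosphatase of Fcgr2b, had a ratio of 0.853 (0.816 to 0.892) and Ptpn6, which encodes SHP-1, 0.679 (0.652 to 0.707).

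Of 18 genes of phagocytosis and the oxidase 0 were past the fold as well, with a median of −0.14. Among those with the most UMIs, the NADPH oxidase subunits Cybb and Cyba had ratios of 0.754 (0.739 to 0.769) and 1.20 (1.17 to 1.23), and the actin regulators Arpc2 and Cdc42 0.720 and 0.926. Of 10 immunoglobulin genes 3 had enough UMIs and 0 were past the fold, with a median log2 ratio of −0.004, and those of the IgG heavy chains (Ighg1, Ighg2b, Ighg2c and Ighg3) were at 0 UMIs in both libraries in these cells. Ighm stood at 90.7 and 135 CPM (0.671, 0.631 to 0.712).

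Likeness was measured as Pearson's r of log2(CPM + 1) over 35 sums of a cluster and library with at least 50 cells, which share libraries and depth, and is given as a description. Fcgr1 was most like Sash1 (0.96), P2ry6, Aif1 and Nxpe5, and Fcgr3 most like Metrnl (0.92), Itgam, Entpd1 and Sdcbp. Itgam encodes CD11b, the integrin of myeloid cells. Fcgr4 was most like Bst1 (0.91), Wdfy3, Arl11 and Lamp2. Fcer1g was most like Efhd2 (0.96), Zfhx3, Tyrobp, which encodes the related signaling chain DAP12, and Fcgr3 (0.88). Fcgr2b was most like Lrp1 (0.93), Dusp3 and Csf1r, and Csf1r encodes the growth factor receptor of macrophages. Among the genes most like Fcgrt were Rnf150 (0.88), Hdac9 and Tmem51. Within the set, r ran from 0.44 for Fcgr3 and Fcgrt to 0.88 for Fcgr3 and Fcer1g.

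In the genome 4 of the 6 genes lie near each other on chromosome 1 of mm10 (GRCm38): Fcgr2b (ENSMUSG00000026656, 170958617 to 170976547, minus strand), Fcgr4 (ENSMUSG00000059089, 171018920 to 171029761, plus strand), Fcgr3 (ENSMUSG00000059498, 171051174 to 171064935, minus strand) and Fcer1g (ENSMUSG00000058715, 171229572 to 171234365, minus strand). Fcgr1 (ENSMUSG00000015947) lies on chromosome 3 from 96282909 to 96293969 and Fcgrt (ENSMUSG00000003420) on chromosome 7 from 45092990 to 45103851, both on the minus strand. All are protein-coding. Fcgr2b and Fcgr3 are close relatives. Of the 31-base words of the longest Fcgr3 transcript, 17.7% occur in the annotated transcripts of Fcgr2b. Of those in its last 500 bases, near which 3′ reads fall, 0 do so. The antisense genes Gm38204 and Gm45669 overlap Fcgr2b and Fcgrt on the opposite strand and were counted as genes of their own.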

How the data were processed

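The authors deposited UMI counts as 1 gene-by-cell matrix per library, the output of Cell Ranger with cells already called. The headers name Cell Ranger 3.0.2, the study's methods another release, and the submitters' processing notes mm10. A table of normalized values and the sequencing reads were not used. The 6 genes and all lists were chosen with earlier results of these data known.

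Kept cells had between 500 and 15000 UMIs, between 200 and 4000 genes and no more than 10% of UMIs from mitochondrial genes. The 2000 genes of highest variance on the log2(CPM + 1) scale, without the 6 genes and the listed genes, gave 15 principal components. A graph of 20 nearest neighbors was partitioned by Leiden clustering (leidenalg 0.10.2, scanpy 1.11.5) at resolution 1. Lymphoid clusters were pooled and clustered again. This step, and the final form of the graph, were chosen after first clusters had merged NK and T cells. Clusters were called "-like" from 15 marker lists, by counts of markers among leading genes, thresholds that were not fixed beforehand, and names may differ from the study's. Scrublet called 0 and 3 cells, which is too few to have worked, so cells with at least 3 markers of another class (monocyte/macrophage and dendritic lists aside) served as possible doublets (161 and 75 cells removed in an alternative).

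UMIs were summed per class and library, with exact Poisson intervals. Each ratio divides the control value by the NK cell-depleted one and has an exact conditional binomial interval, log2 ratios have 0.5 UMI added to each sum, and shares have Clopper-Pearson intervals, all at 95%. A count of 0 allows up to 3 counts. Genes reaching 20 UMIs in the libraries together were compared and called past 1.5-fold. All 6 genes are named, with, for each, the 4 genes of highest correlation (at least 500 UMIs; some are not reported here) and, from the lists, every gene past 1.5-fold in monocyte/macrophage-like cells or otherwise up to 4 with the most UMIs. Promoter windows came from RefSeq (GRCm38.p6) and gene positions from GENCODE. The procedure was tested on simulated data. Alternatives were thinning to 2000 UMIs, no upper limits, no possible doublets, resolution 2, means over cells, subtraction of the melanoma-like level, centering on the median gene and equal weights of clusters.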

Additional observations from a re-analysis of the deposited data

Results flagged for a closer look

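Fcgr2b went in opposite directions in different cells, each beyond counting error: among the 9 large monocyte/macrophage-like clusters and the other classes with at least 20 UMIs of the gene over both libraries, 8 were higher in the control library and 4 lower. Eosinophil-like cells, with 3 and 1 UMIs, were below that minimum. Among the cells counted its log2 ratio was lowest in the cluster led by Cd209a, Sept3 and Flt3, at −0.20, and highest in migratory dendritic cell-like cells, at 1.89, the latter from 30 and 6 UMIs. A few of the 60 control cells held 76.7% of the 30 UMIs, so this highest value rests on few cells. With 1 library per group the difference between these cells was not tested.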

How the results depend on the processing

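No paired analysis was possible because each group had 1 library, and for the same reason no replicate could be left out. In monocyte/macrophage-like cells, equal weights of clusters gave log2 ratios of 0.39 for Fcgr1, 0.35 for Fcgr3, 0.33 for Fcgr4, 0.27 for Fcer1g, 0.11 for Fcgr2b and 0.37 for Fcgrt. Thinning gave 0.25 for Fcgr1, 0.14 for Fcer1g, 0.31 for Fcgr2b and 0.15 for Fcgrt, means over cells 0.15 for Fcer1g and 0.11 for Fcgrt, and subtraction of the melanoma-like level 0.43 for Fcgr3. The sum of Fcgrt over all these cells, −0.03, was the one whose sign turned, while within clusters it was higher in the control library in 9 of 9, 4 of them beyond counting error. In neutrophil-like cells thinning left 4 and 16 cells and gave −1.46 for Fcgr3 and for Fcgr2b, reversed, and 1.26 for Fcgr4, values that rest on too few cells to read. In control NK-like cells, Fcgr3 was 28.8 CPM after subtraction of the melanoma-like level, thinning gave 0 CPM for Fcgr4 and 43.3 CPM for Fcgr2b, and Fcer1g was 1299 CPM without possible doublets and 1316 CPM without the cluster led by Gzmc, an alternative chosen after seeing the data. The ratio of activating to inhibitory UMIs was 1.13 (control) and 1.11 (NK cell-depleted) with thinning, and 1.13 and 0.944 with equal weights. At the lower fold limit tried, 1 of the 6 genes and 27 listed genes were past the limit, against 0 and 9 at 1.5-fold, and 4 listed genes at 2-fold or with at least 100 UMIs. Centering moved the ratios by under 0.01, and neither resolution 2 nor the absence of upper limits moved a value beyond counting error. Depth limits Fcgr1, Fcgr4 and Fcgrt outside monocyte/macrophage-like cells, where most sums were under 20 UMIs.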
